A study of Canis lupus familiaris with 69 samples.

Results

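Endometrium from 7 bitches with pyometra that had not been given progesterone compounds before surgery was compared with endometrium from 20 healthy bitches in diestrus that had likewise not been given them. The 7 diseased dogs were those with the case numbers 100, 198, 199, 207, 214, 217 and 225 in the sample titles. Membership followed the diagnosis in the titles and the treatment history shown for each dog in the study's clustering figure. No expression value was used. The study differs with itself on dog 225, which that figure shows as untreated. Its printed averages of untreated pyometra for KRT5, IL6 and LTF match these dogs only when dog 225 is left out. The diseased dogs made up 7 of the 17 dogs with pyometra and 7 of the 69 dogs of the series. There was 1 array per dog (Affymetrix Canine Gene 1.0 ST, a whole-transcript array). The other 10 dogs with pyometra had been given progesterone compounds. They and the 15 dogs with mucometra, a uterus filled with sterile mucus, served as further references. For these 15 dogs the titles say mucometra but another field says hemometra, and the titles were followed. The 16 dogs with cystic endometrial hyperplasia were not compared, and 1 treated dog in diestrus was added to the healthy dogs only as an alternative. All samples were pieces of the uterine wall that were snap-frozen after removal of the uterus, freed of luminal exudate and dissected down to the endometrium. The groups were not matched. All healthy dogs were in early diestrus, whereas dogs 198 and 217 were in anestrus. In the study's clinical table dogs with pyometra were older as a group and had lower serum progesterone than the healthy dogs. Some of them were in mid or late diestrus, and a smaller share of them were of mixed breed. The cervix was closed in dogs 100 and 207 and open in the other 5. Case numbers lay between 198 and 225 in untreated pyometra, apart from dog 100, and between 7 and 170 in diestrus. No batch is labelled. Disease, age, breed, cycle stage, serum progesterone and case number therefore cannot be told apart. Whether case numbers follow the order of collection is not stated.

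Pyometra is a purulent infection of the uterus, most often with bacteria that ascend through the vagina, and it arises mainly in the luteal phase of the canine cycle. Progesterone from the corpora lutea makes the endometrial glands grow and secrete, closes the cervix and dampens local immune defence. In the infected wall the surface and glandular epithelium, the stroma and incoming leukocytes all contribute RNA to a bulk sample, and fewer cells of a type cannot be told apart from less RNA per cell.

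The values are log2 expression levels, so that a difference of 1 is a 2-fold change, and 15947 genes were measured by 1 probe set each. Levels of a gene in a group are given as the lowest, the median and the highest dog. Fold changes are untreated pyometra over its reference on the log2 scale, with the standard error (SE) and the adjusted p of limma (Benjamini-Hochberg over all genes), and a gene is called higher or lower at a fold change of at least 2 with an adjusted p under 0.05. Array medians lay between 6.20 and 6.28 in untreated pyometra and between 6.21 and 6.28 in diestrus. The tissue label was checked on defining genes. EPCAM, an epithelial adhesion molecule, had 7.42, 9.10 and 9.22 in untreated pyometra, against 9.14, 9.60 and 10.28 in diestrus. HOXA10, a transcription factor of the uterus, had 6.75, 8.07 and 8.39 in untreated pyometra, against 6.95, 7.75 and 8.67 in diestrus. VIM, vimentin of the stroma, had 11.62, 12.41 and 12.72 in untreated pyometra, against 11.12, 12.11 and 12.27 in diestrus. Genes of epithelium, uterus and stroma were thus measured at moderate to high levels in both groups, and the other groups were not checked. The epithelial genes were lower in untreated pyometra. The median of EPCAM there was below the lowest healthy dog. KRT18 had a median of 11.05 in untreated pyometra against 12.055 in diestrus, and CDH1 10.12 against 10.57. The array of dog 100 was more like that of the mucometra dog 216 (Pearson's r = 0.9928 over genes) than any other 2 of the 69 arrays were like each other, the next pair being 2 diestrus dogs (r = 0.9889). Dog 207 was nearest to the mucometra dog 219 (r = 0.9856), and its mean correlation was 0.944 with the other untreated pyometra dogs, 0.972 with mucometra and 0.925 with diestrus. The mucometra dog 216 was also nearest to dogs 198 (r = 0.9663), 214 (0.9718) and 217 (0.9682). Only dogs 199 and 225 were nearest to another untreated pyometra dog. The mean correlation of dog 198 was 0.9486 with its own group and 0.9493 with mucometra. Counts were therefore also taken without single dogs.

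Untreated pyometra differed from diestrus in 1465 of the 15947 genes (9.19%), of which 982 were higher (6.16%) and 483 lower (3.03%). Whatever the size of the change, every dog with pyometra was above every dog in diestrus in 317 genes (1.99%) and below every one in 225 genes (1.41%). The median gene had a log2 fold change of -0.052, and 43% of genes had a positive one. Each dog with pyometra had between 2070 and 2575 genes above the whole diestrus range and between 2027 and 2960 below it, the fewest of both kinds in dog 207. The count of changed genes lay between 1375 and 1563 when any 1 of the 27 dogs was left out. Gene lists for pathways and cell types give the outline of the change. Macrophage and monocyte markers had the largest share of members higher, 17 of 19 with a median log2 fold change of 1.52, followed by Fc receptors and immunoglobulin transport with 9 of 12 (median 1.38). Transcription factors of the uterine glands and epithelium had the largest share lower, 11 of 27 (median -0.58) with 1 higher, and 2 higher without dog 100. No member was called among 16 markers of ciliated epithelium (median -0.03), 28 genes of the mitochondrial respiratory chain (-0.19), 6 erythroid genes (-0.08) and 3 platelet genes (-0.01).

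**Figure D1:**
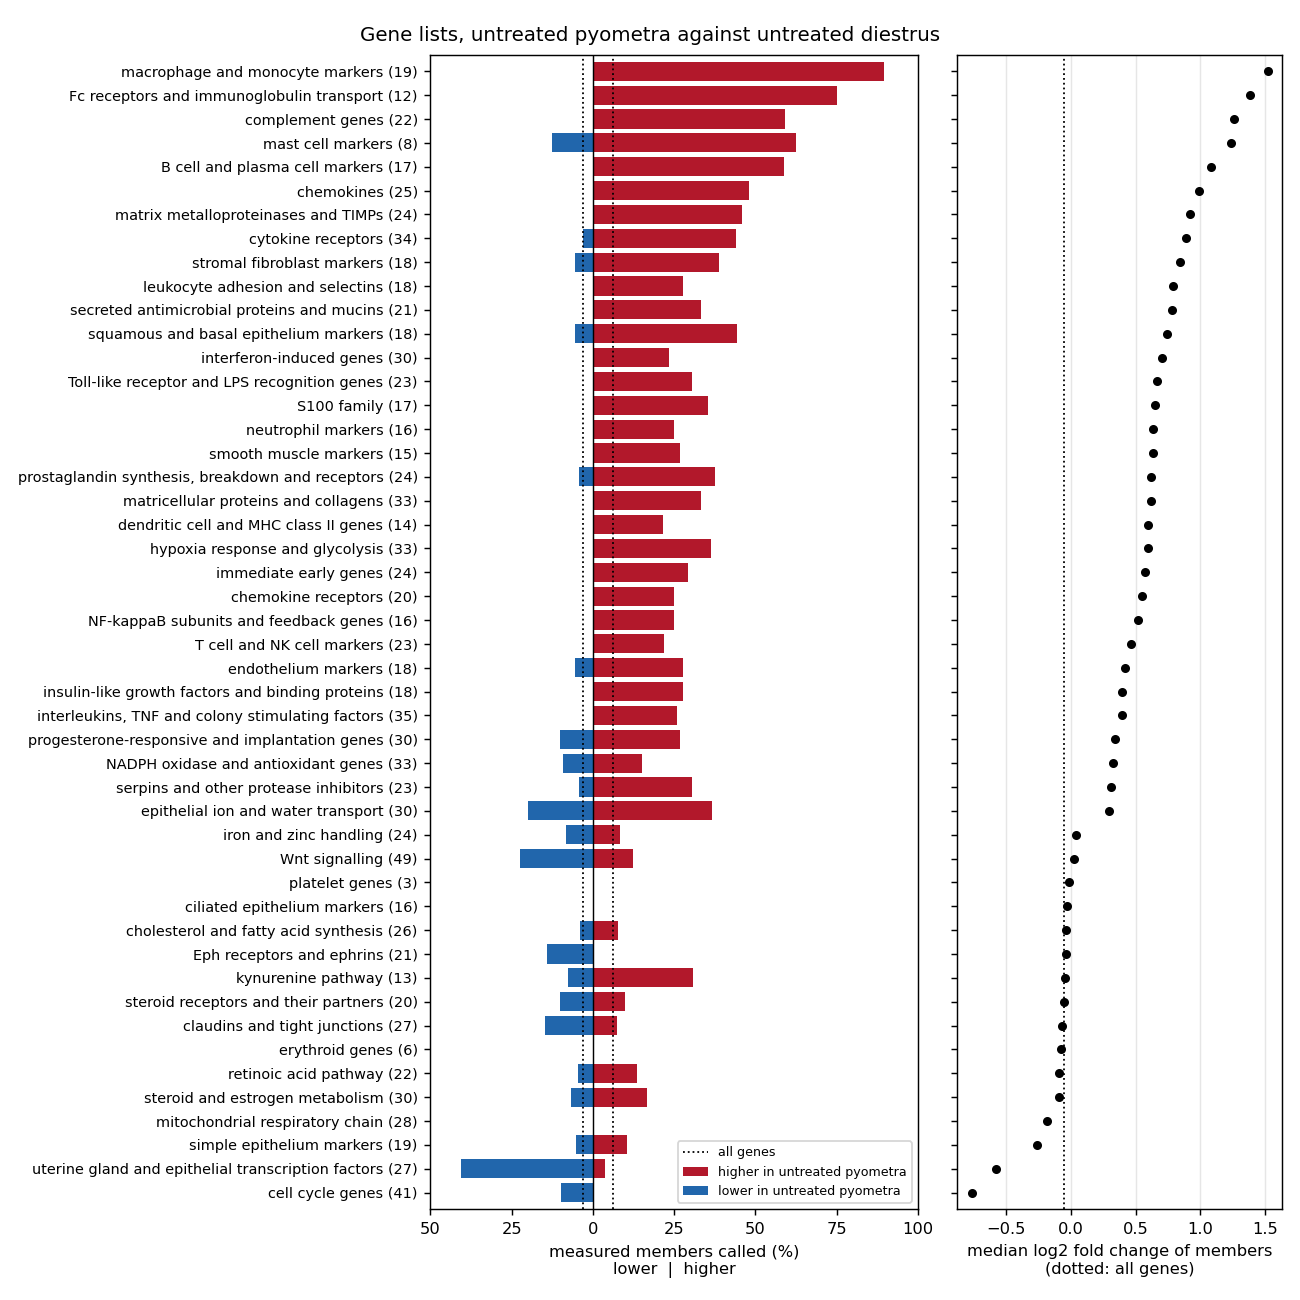
Share of measured members of each gene list called higher (red, to the right) or lower (blue, to the left) in 7 untreated pyometra dogs against 20 diestrus dogs, in percent, with the number of members in brackets, and the median log2 fold change of the members at right. Dotted lines mark the same values over all 15947 genes (6.16% higher, 3.03% lower, median -0.052), and macrophage markers stand at the top and cell cycle genes at the bottom.

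Enzymes that remodel the tissue matrix were among the genes that rose most. MMP13, a collagenase that cuts fibrillar collagen, had 7.27, 10.64 and 11.45 in untreated pyometra, against 3.54, 4.07 and 4.61 in diestrus (log2 fold change 6.01, SE 0.29, adjusted p = 4.62e-14), a 64.4-fold rise. Its 2 groups were far apart, with the lowest diseased dog, 207, still well above the highest healthy one. MMP1, a second collagenase, had 3.31, 7.60 and 9.62 in untreated pyometra, against 2.57, 3.26 and 5.01 in diestrus (log2 fold change 4.16, SE 0.51, adjusted p = 2.93e-07). Here dog 207 was at the diestrus level and the other 6 diseased dogs were above every healthy dog. MMP12, the elastase of macrophages, had 6.67, 8.33 and 9.17 in untreated pyometra, against 3.22, 4.10 and 6.10 in diestrus (log2 fold change 3.75, SE 0.32, adjusted p = 7.39e-10), with no overlap. MMP9, a gelatinase that neutrophils also store, rose less (log2 fold change 1.65, SE 0.36, adjusted p = 0.000534) and had 4.62, 5.50 and 8.28 in untreated pyometra, against 3.65, 4.53 and 5.40 in diestrus. It was above the diestrus range in 4 of 7 dogs. Of the 24 metalloproteinases and tissue inhibitors measured, 11 were higher and none lower (median 0.92). Among 33 matricellular proteins and collagens, 11 were higher and none lower (median 0.62). SPP1, osteopontin, an adhesion protein that the receptive endometrium and macrophages secrete, had 8.95, 10.95 and 11.97 in untreated pyometra, against 5.11, 6.08 and 7.57 in diestrus (log2 fold change 4.45, SE 0.34, adjusted p = 1.66e-10). THBS4, a thrombospondin of healing tissue, had 9.13, 10.97 and 11.66 in untreated pyometra, against 5.14, 6.49 and 7.79 in diestrus (log2 fold change 4.29, SE 0.34, adjusted p = 2.64e-10). Neither overlapped between groups, nor did THBS1, a thrombospondin that activates transforming growth factor beta (log2 fold change 2.12, SE 0.23, adjusted p = 5.46e-08).

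TFPI2, a Kunitz inhibitor of serine proteases that is abundant in placenta, had 8.09, 10.15 and 11.82 in untreated pyometra, against 2.84, 4.93 and 7.19 in diestrus (log2 fold change 5.23, SE 0.46, adjusted p = 1.58e-09), with no overlap. SLPI, a secreted inhibitor of neutrophil elastase that also kills bacteria, had 6.61, 12.05 and 13.32 in untreated pyometra, against 5.66, 6.14 and 8.80 in diestrus (log2 fold change 4.53, SE 0.56, adjusted p = 4.1e-07). Only dog 207, at 6.61, lay within the diestrus range, and the spread among the other 6 dogs was wide. SPINK5, an inhibitor of epidermal proteases, had 4.04, 7.94 and 11.10 in untreated pyometra, against 3.92, 4.32 and 4.99 in diestrus (log2 fold change 2.80, SE 0.58, adjusted p = 0.000337). It was above the diestrus range in 4 of 7 dogs. SERPINA1, alpha-1-antitrypsin, the main circulating inhibitor of neutrophil elastase, went the other way, with 5.02, 6.91 and 8.07 in untreated pyometra, against 7.68, 9.88 and 10.28 in diestrus (log2 fold change -3.17, SE 0.30, adjusted p = 5.72e-09), and was below every healthy dog in 6 of 7. In all, 7 of 23 serpins and other inhibitors were higher and 1 lower (median 0.31).

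**Figure D2:**
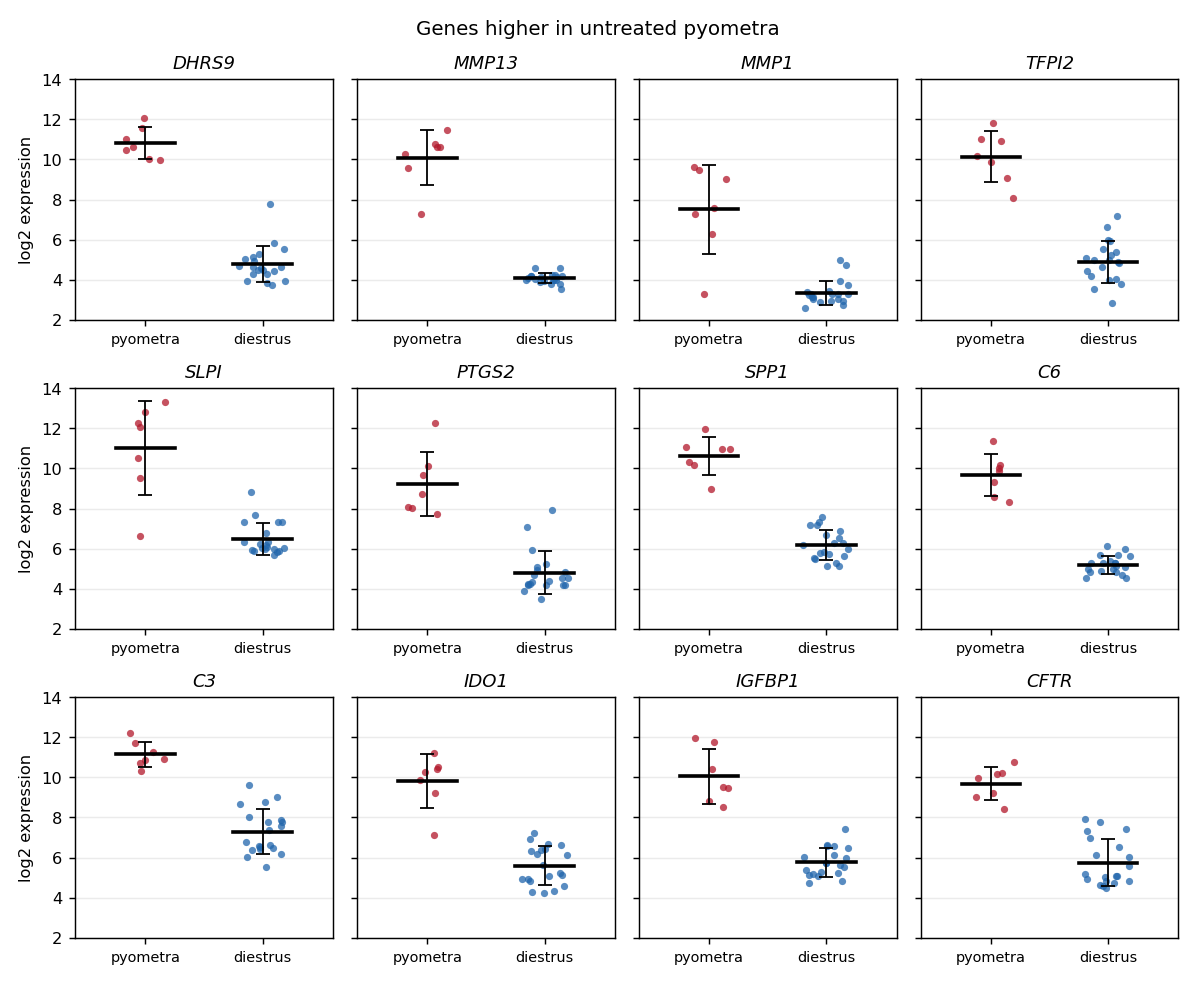
Log2 expression of 12 genes in each of 7 untreated pyometra dogs (red, left) and 20 diestrus dogs (blue, right), with the mean (bar) and 1 SD (whiskers). MMP13, DHRS9, TFPI2, SPP1, C6, C3, IGFBP1 and CFTR do not overlap between groups, and single diseased dogs reach the healthy range for MMP1, SLPI, PTGS2 and IDO1.

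The single largest rise was that of DHRS9, an enzyme that oxidises retinol on the way to retinoic acid. It had 9.98, 10.62 and 12.08 in untreated pyometra, against 3.72, 4.63 and 7.78 in diestrus (log2 fold change 6.04, SE 0.37, adjusted p = 2.6e-12), a 66-fold difference with no overlap. ALDH1A3, which makes retinoic acid from retinal, had 6.38, 7.76 and 8.69 in untreated pyometra, against 5.25, 5.70 and 6.54 in diestrus (log2 fold change 1.73, SE 0.23, adjusted p = 8.8e-07). RBP4, the carrier of retinol, had 11.19, 12.43 and 13.42 in untreated pyometra, against 7.23, 8.39 and 12.82 in diestrus (log2 fold change 3.31, SE 0.62, adjusted p = 9.7e-05), and its healthy dogs were spread over a wide range that 5 of the 7 diseased dogs shared. LRAT, which stores retinol as esters, fell, with 5.77, 6.44 and 7.96 in untreated pyometra, against 6.83, 9.79 and 10.85 in diestrus (log2 fold change -2.91, SE 0.39, adjusted p = 1.2e-06), and was below all healthy dogs in 6 of 7. The pathway as a whole had 3 of 22 members higher and 1 lower (median -0.09).

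In the prostaglandin pathway 9 of 24 genes were higher and 1 lower (median 0.62). PTGS2, the inducible cyclooxygenase that makes prostaglandin H2, had 7.74, 8.72 and 12.26 in untreated pyometra, against 3.50, 4.47 and 7.92 in diestrus (log2 fold change 4.43, SE 0.51, adjusted p = 1.13e-07). All diseased dogs but 1 were above the highest healthy dog. PTGS1, the constitutive form, rose 3.03-fold and had 6.71, 7.63 and 8.67 in untreated pyometra, against 5.17, 6.01 and 7.05 in diestrus (log2 fold change 1.60, SE 0.24, adjusted p = 5.29e-06). TBXAS1, thromboxane synthase, had 8.48, 9.03 and 9.37 in untreated pyometra, against 5.18, 5.71 and 10.37 in diestrus (log2 fold change 2.82, SE 0.48, adjusted p = 3.2e-05). Its healthy dogs reached the level of the diseased ones, so that no diseased dog stood above the range. PLA2G7, which breaks down platelet-activating factor, was higher without overlap (log2 fold change 1.98, SE 0.27, adjusted p = 1.47e-06).

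Of the receptors for sex steroids 1 was called. ESR2, estrogen receptor beta, had 5.23, 5.58 and 7.66 in untreated pyometra, against 6.34, 10.26 and 11.48 in diestrus (log2 fold change -3.90, SE 0.51, adjusted p = 1e-06), a 14.9-fold fall, with 5 of 7 dogs below the diestrus range. ESR1, estrogen receptor alpha, had 9.59, 11.08 and 11.45 in untreated pyometra, against 10.67, 11.27 and 11.68 in diestrus, and was not called (log2 fold change -0.32, SE 0.18, adjusted p = 0.153). PGR, the progesterone receptor, had 7.96, 9.56 and 10.10 in untreated pyometra, against 8.57, 9.34 and 10.63 in diestrus, and was not called either (log2 fold change -0.11, SE 0.26, adjusted p = 0.764; 95% confidence interval -0.65 to 0.43). Both receptors overlapped broadly between groups. GREB1, a target of estrogen receptors, fell (log2 fold change -1.60, SE 0.23, adjusted p = 3.72e-06) and was below all healthy dogs in 6 of 7. VDR, the vitamin D receptor, rose without overlap (log2 fold change 1.46, SE 0.15, adjusted p = 2.31e-08), and NR3C1, the glucocorticoid receptor, rose (log2 fold change 1.05, SE 0.17, adjusted p = 1.45e-05). These 4 were the changed members among 20 steroid receptors and partners (median -0.05). Of 30 genes of steroid metabolism 5 were higher and 2 lower (median -0.09). HSD17B2, which turns estradiol into estrone, had 4.52, 4.59 and 5.78 in untreated pyometra, against 5.28, 8.26 and 11.09 in diestrus (log2 fold change -3.46, SE 0.61, adjusted p = 4.68e-05). SULT1D1, a sulfotransferase, lay between 3.03 and 7.57 in untreated pyometra, against 7.50 and 11.61 in diestrus (log2 fold change -4.58, SE 0.60, adjusted p = 9.14e-07). For both enzymes the lowest healthy dogs were within the range of the diseased ones. HSD17B11, a dehydrogenase of androgens and lipids, had 8.04, 10.32 and 11.31 in untreated pyometra, against 6.43, 7.06 and 7.75 in diestrus (log2 fold change 2.97, SE 0.25, adjusted p = 7.39e-10), with no overlap. AKR1C3, a reductase of steroids and prostaglandins, was higher on average (log2 fold change 4.13, SE 1.05, adjusted p = 0.00228) but had 5.29, 9.36 and 11.74 in untreated pyometra, against 3.18, 4.06 and 12.25 in diestrus, with wide overlap. Probes of AKR1C3, SULT1D1, CYP4A37 and OBP2B may not separate near-identical relatives.

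Of 30 progesterone-responsive and implantation genes 8 were higher and 3 lower (median 0.34). The lowest member, MSX2 (log2 fold change -2.56), also belongs to the list of gland transcription factors and is given there. IGFBP1, a binding protein of insulin-like growth factors that marks decidual cells in women, had 8.50, 9.52 and 11.98 in untreated pyometra, against 4.72, 5.67 and 7.45 in diestrus (log2 fold change 4.30, SE 0.38, adjusted p = 1.82e-09). LIF, a cytokine needed for implantation in mice, had 6.56, 7.19 and 10.47 in untreated pyometra, against 5.04, 5.54 and 6.19 in diestrus (log2 fold change 2.32, SE 0.32, adjusted p = 1.71e-06). Neither overlapped. MUC1, a mucin of the endometrial surface, rose (log2 fold change 2.32, SE 0.66, adjusted p = 0.00563) within the range of healthy dogs, which spread between 5.40 and 11.74. Among 18 insulin-like growth factors and their binding proteins 5 were higher and none lower (median 0.40), with IGFBP3 at 8.80, 9.11 and 10.26 in untreated pyometra, against 5.82, 6.62 and 8.31 in diestrus (log2 fold change 2.68, SE 0.25, adjusted p = 3.12e-09).

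Complement genes were higher in 13 of 22 cases and lower in none (median 1.26). C3, the central component, had 10.33, 10.91 and 12.21 in untreated pyometra, against 5.53, 7.07 and 9.62 in diestrus (log2 fold change 3.85, SE 0.43, adjusted p = 7.52e-08). C6, a subunit of the membrane attack complex, had 8.35, 9.89 and 11.38 in untreated pyometra, against 4.53, 5.20 and 6.12 in diestrus (log2 fold change 4.47, SE 0.27, adjusted p = 2.6e-12), a 22.2-fold rise. Both were clear of the diestrus range in every dog. C7, the next subunit, rose 8.3-fold (log2 fold change 3.05, SE 0.38, adjusted p = 4.55e-07), and C4BPA, an inhibitor of the cascade, rose with a larger error (log2 fold change 3.55, SE 0.75, adjusted p = 0.000406). The receptors C3AR1 (log2 fold change 1.53, SE 0.25, adjusted p = 2e-05) and C5AR1 (log2 fold change 1.41, SE 0.23, adjusted p = 1.75e-05), through which the cleaved fragments call leukocytes, were also higher, in 3 and 4 of 7 dogs above the diestrus range.

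Of 25 chemokines 12 were higher and none lower (median 0.99), and of 20 chemokine receptors 5 were higher and none lower (median 0.55). CXCL8, the main attractant of neutrophils, had 6.29, 9.98 and 10.80 in untreated pyometra, against 4.63, 5.64 and 10.12 in diestrus (log2 fold change 3.24, SE 0.57, adjusted p = 4.69e-05). The groups overlapped, and 3 of 7 dogs exceeded the diestrus range. CXCL14, which attracts monocytes and kills bacteria, had 7.05, 8.24 and 10.67 in untreated pyometra, against 4.33, 5.18 and 7.25 in diestrus (log2 fold change 3.12, SE 0.34, adjusted p = 4.21e-08). CXCL17, a chemokine of mucosal surfaces, had 5.75, 8.83 and 11.29 in untreated pyometra, against 5.24, 5.58 and 5.88 in diestrus (log2 fold change 2.80, SE 0.41, adjusted p = 4.29e-06). Each was above all healthy dogs in 6 of 7. CCL2, the attractant of monocytes, had 8.91, 9.51 and 10.20 in untreated pyometra, against 5.08, 6.67 and 9.38 in diestrus (log2 fold change 2.74, SE 0.42, adjusted p = 8.35e-06), and its receptor CCR2 rose too (log2 fold change 1.30, SE 0.19, adjusted p = 4.47e-06). ACKR4, a scavenger of lymphoid chemokines, rose (log2 fold change 2.18, SE 0.28, adjusted p = 6.77e-07) and was above the range in 5 of 7.

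IL1B, TNF and IL6, classical cytokines of acute inflammation, were not among the genes called. IL1B had 3.80, 4.68 and 5.89 in untreated pyometra, against 3.52, 3.98 and 4.83 in diestrus, and stayed under the 2-fold limit (log2 fold change 0.68, SE 0.20, adjusted p = 0.00638). TNF had 4.64, 5.23 and 5.75 in untreated pyometra, against 4.34, 4.88 and 5.89 in diestrus, and was not called (log2 fold change 0.33, SE 0.15, adjusted p = 0.0799). IL6 had 4.25, 5.19 and 8.17 in untreated pyometra, against 3.54, 4.37 and 8.01 in diestrus, and was not called (log2 fold change 0.81, SE 0.55, adjusted p = 0.246; 95% confidence interval -0.32 to 1.94). For all 3 most diseased dogs lay inside the healthy range. IL1R1, the signalling receptor of interleukin 1, had 8.45, 9.32 and 10.31 in untreated pyometra, against 4.74, 5.88 and 8.69 in diestrus (log2 fold change 3.46, SE 0.33, adjusted p = 6.16e-09), and its decoy IL1R2 rose as well (log2 fold change 1.76, SE 0.25, adjusted p = 2.88e-06), each above all healthy dogs in 6 of 7. Of 34 cytokine receptors 15 were higher and 1 lower (median 0.89), the lower one being IL13RA2, a decoy for interleukin 13 (log2 fold change -2.05, SE 0.29, adjusted p = 2.91e-06). Of 35 interleukins and related factors 9 were higher and none lower (median 0.39). IL33, an alarm signal held in nuclei of epithelium and endothelium, had 7.97, 8.26 and 10.02 in untreated pyometra, against 5.72, 6.62 and 7.51 in diestrus (log2 fold change 1.94, SE 0.26, adjusted p = 1.15e-06). TNFSF13B, the survival factor of B cells, rose (log2 fold change 1.83, SE 0.28, adjusted p = 1.02e-05), and so did IL1A (log2 fold change 1.67, SE 0.33, adjusted p = 0.000193), which dog 225 led at 9.31. Feedback genes of NF-kappaB were higher in 4 of 16 and lower in none (median 0.52), with NFKBIZ at 8.94, 9.77 and 10.33 in untreated pyometra, against 6.59, 7.42 and 8.60 in diestrus (log2 fold change 2.11, SE 0.24, adjusted p = 9.01e-08). Of 23 genes for Toll-like receptors and recognition of lipopolysaccharide 7 were higher and none lower (median 0.66). They included CD14, the coreceptor for lipopolysaccharide (log2 fold change 1.67, SE 0.18, adjusted p = 2.86e-08), AOAH, which inactivates it (log2 fold change 1.70, SE 0.23, adjusted p = 1.32e-06), and TLR2, which senses bacterial lipoproteins (log2 fold change 1.36, SE 0.22, adjusted p = 1.97e-05). Interferon-induced genes were higher in 7 of 30 and lower in none (median 0.70), among them the antiviral gene MX2 (log2 fold change 1.79, SE 0.39, adjusted p = 0.000573) and the transcription factor IRF1 (log2 fold change 1.43, SE 0.22, adjusted p = 6.64e-06).

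In the kynurenine pathway of tryptophan breakdown 4 of 13 genes were higher and 1 lower (median -0.04). IDO1, which opens the pathway and is induced by interferon gamma, had 7.11, 10.26 and 11.24 in untreated pyometra, against 4.25, 5.44 and 7.21 in diestrus (log2 fold change 4.20, SE 0.44, adjusted p = 2.81e-08), and was above all healthy dogs in 6 of 7. AADAT, which makes kynurenic acid, rose without overlap (log2 fold change 2.14, SE 0.26, adjusted p = 3.41e-07), and KMO, of the other branch, rose in 5 of 7 dogs above the range (log2 fold change 1.83, SE 0.35, adjusted p = 0.000127). SLC7A5, a transporter of large amino acids, fell (log2 fold change -2.04, SE 0.50, adjusted p = 0.00178).

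Markers of leukocytes were counted by cell type. Among macrophage and monocyte markers all 19 had a positive log2 fold change. MRC1, the mannose receptor, had 7.41, 9.09 and 10.11 in untreated pyometra, against 5.73, 6.44 and 8.09 in diestrus (log2 fold change 2.28, SE 0.25, adjusted p = 6.44e-08). CD14 had 7.77, 8.89 and 9.75 in untreated pyometra, against 6.67, 7.15 and 7.59 in diestrus, without overlap. The summed level of the list, the mean over its members of the log2 difference from the diestrus mean, lay between 0.77 and 2.37 in the diseased dogs and between -0.52 and 1.02 in diestrus. Of 16 neutrophil markers 4 were higher and none lower (median 0.64), and the list level lay between 0.14 and 2.38 in untreated pyometra, against -0.24 and 0.27 in diestrus. S100A8, a calcium-binding protein that fills neutrophils and binds zinc away from bacteria, had 5.86, 6.39 and 9.90 in untreated pyometra, against 3.71, 4.38 and 5.70 in diestrus (log2 fold change 2.78, SE 0.39, adjusted p = 2.23e-06). Its partner S100A9 had 6.03, 8.01 and 10.98 in untreated pyometra, against 4.92, 6.03 and 6.58 in diestrus (log2 fold change 2.47, SE 0.40, adjusted p = 1.48e-05), and S100A12 rose as well (log2 fold change 2.44, SE 0.47, adjusted p = 0.000151). All 7 dogs were above the diestrus range for S100A8 and 6 of 7 for the other two. Lactoferrin, LTF, a protein of neutrophil granules and of uterine glands, had 6.37, 9.55 and 12.23 in untreated pyometra, against 6.16, 9.03 and 12.15 in diestrus, and was not called (log2 fold change 0.16, SE 0.80, adjusted p = 0.89). Of 17 B cell and plasma cell markers 10 were higher and none lower (median 1.08), but 5 without dog 217, whose list level was the highest at 2.16. JCHAIN, the joining chain of secreted antibodies, had 9.35, 11.22 and 12.96 in untreated pyometra, against 7.73, 8.59 and 10.54 in diestrus (log2 fold change 2.38, SE 0.39, adjusted p = 1.69e-05), and PRDM1, a regulator of plasma cells, rose without overlap (log2 fold change 1.87, SE 0.24, adjusted p = 5.28e-07). Of 23 T and NK cell markers 5 were higher and none lower (median 0.46), led by CD2 (log2 fold change 1.84, SE 0.32, adjusted p = 4.92e-05) and the chemokine CCL5 (log2 fold change 1.56, SE 0.41, adjusted p = 0.00293).

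Mast cell markers were higher in 5 of 8 and lower in 1 (median 1.23), or in 0 without dog 217 or 225. CPA3, the carboxypeptidase of their granules, had 4.87, 7.92 and 9.0 in untreated pyometra, against 3.56, 4.68 and 6.92 in diestrus (log2 fold change 2.33, SE 0.48, adjusted p = 0.000315). MS4A2, a chain of the receptor for immunoglobulin E, had 4.62, 6.14 and 7.19 in untreated pyometra, against 3.37, 3.88 and 4.58 in diestrus (log2 fold change 1.83, SE 0.26, adjusted p = 3.37e-06), and did not overlap. Genes of antigen presentation had 3 of 14 members higher and none lower (median 0.60). DLA-DRA, a class II chain, had 10.97, 11.55 and 11.89 in untreated pyometra, against 7.92, 9.53 and 10.75 in diestrus (log2 fold change 2.05, SE 0.30, adjusted p = 3.37e-06), and CD74, its invariant chain, rose likewise (log2 fold change 1.96, SE 0.28, adjusted p = 2.57e-06), both without overlap. FCGR2B, the inhibitory receptor for immunoglobulin G, rose (log2 fold change 1.77, SE 0.30, adjusted p = 2.83e-05). Adhesion molecules of leukocytes were higher in 5 of 18 and lower in none (median 0.79). VCAM1, the endothelial ligand of lymphocytes and monocytes, had 7.51, 8.46 and 10.40 in untreated pyometra, against 4.06, 5.02 and 6.39 in diestrus (log2 fold change 3.79, SE 0.28, adjusted p = 1.15e-10), with no overlap. CD44, the receptor for hyaluronan, had 8.50, 10.32 and 11.21 in untreated pyometra, against 5.85, 6.63 and 8.63 in diestrus (log2 fold change 3.45, SE 0.33, adjusted p = 5.14e-09), with 6 of 7 dogs above the range. Whether these cell types account for the rise of cytokine, complement or protease genes was not tested.

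The largest fall was that of EPHA7, a receptor for ephrins. It had 4.68, 5.42 and 9.25 in untreated pyometra, against 10.75, 11.48 and 12.23 in diestrus (log2 fold change -5.15, SE 0.39, adjusted p = 1.71e-10), a 35.6-fold fall. Every diseased dog was below every healthy dog, although dogs 207 and 214, at 9.25 and 8.12, fell less than the rest. Of 21 Eph receptors and ephrins 3 were lower and none higher (median -0.04), the other two being EFNA4 (log2 fold change -1.44, SE 0.15, adjusted p = 1.34e-08) and EPHB1 (log2 fold change -1.23, SE 0.26, adjusted p = 0.000379). Without dog 225, 1 member was called higher. ELAPOR1, a membrane protein of lysosomes first described as induced by estrogen, had 5.88, 6.55 and 8.44 in untreated pyometra, against 10.36, 11.51 and 12.33 in diestrus (log2 fold change -4.63, SE 0.29, adjusted p = 5.55e-12). PIK3C2G, a lipid kinase, had 3.30, 3.63 and 4.36 in untreated pyometra, against 5.50, 8.54 and 9.91 in diestrus (log2 fold change -4.40, SE 0.49, adjusted p = 6.72e-08). VSIG1, a junction protein of glandular epithelium, had 4.05, 4.68 and 5.74 in untreated pyometra, against 6.22, 8.07 and 9.07 in diestrus (log2 fold change -3.27, SE 0.29, adjusted p = 1.47e-09). None of these 3 overlapped. CORIN, a protease that activates natriuretic peptide in the pregnant uterus of mice, lay between 4.30 and 4.69 in untreated pyometra, against 5.01, 8.71 and 10.98 in diestrus (log2 fold change -4.03, SE 0.70, adjusted p = 4.22e-05). The diseased dogs were nearly equal and all below the healthy ones, which were spread widely.

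Some large falls rested on a part of the healthy dogs. OBP2B, an odorant-binding lipocalin, lay between 4.02 and 5.17 in untreated pyometra, against 4.30, 9.21 and 12.75 in diestrus (log2 fold change -4.35, SE 1.05, adjusted p = 0.0015). AQP9, a channel for water and glycerol, lay between 7.18 and 8.65 in untreated pyometra, against 4.15, 12.05 and 12.49 in diestrus (log2 fold change -3.17, SE 0.73, adjusted p = 0.00104). CBD139, a beta-defensin, lay between 4.18 and 4.82 in untreated pyometra, against 4.18, 7.68 and 12.18 in diestrus (log2 fold change -3.20, SE 0.86, adjusted p = 0.00396). In each of them some healthy dogs were as low as the diseased ones or lower, so that at most 1 diseased dog was outside the diestrus range.

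**Figure D3:**
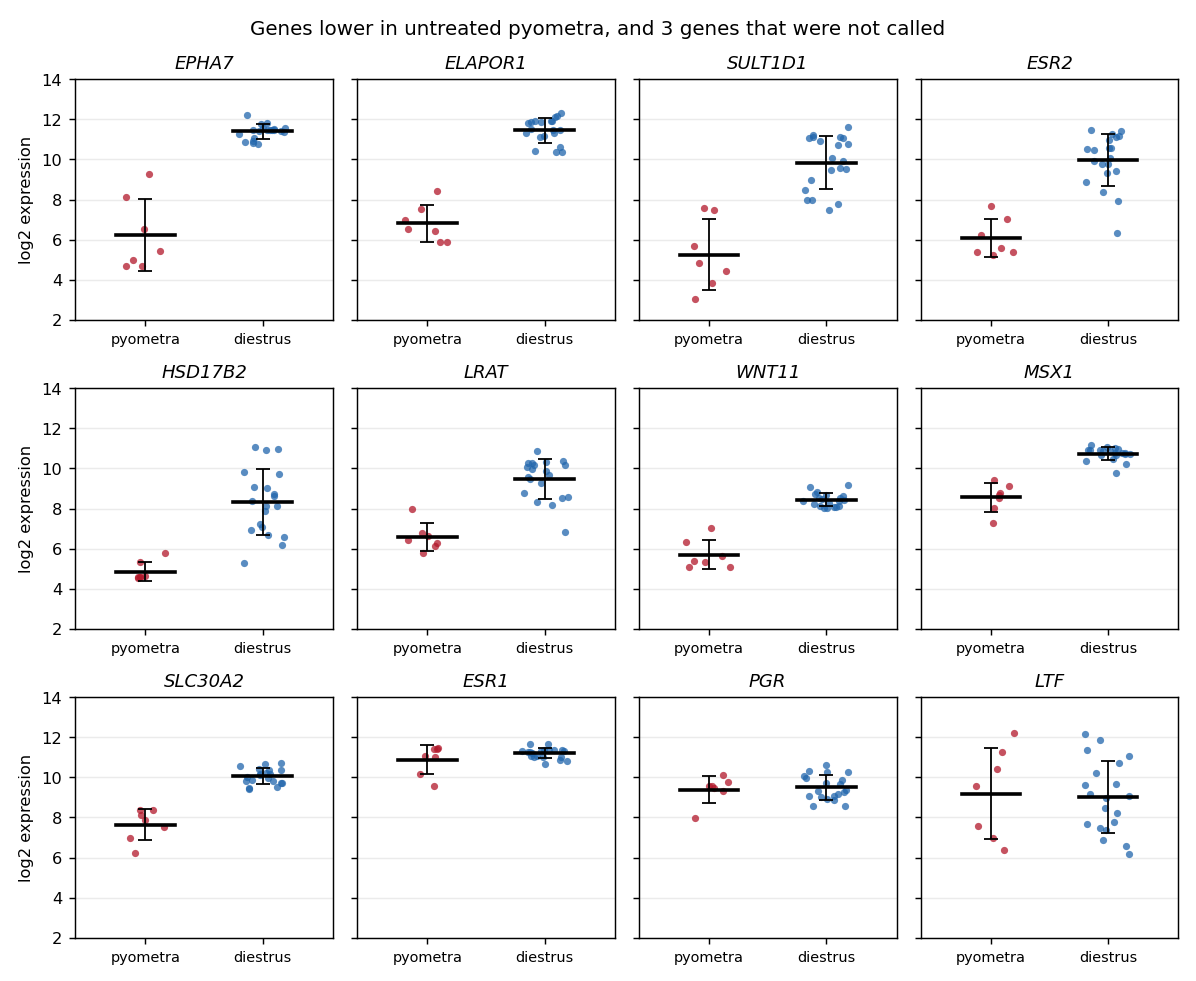
Log2 expression of 12 genes in each of 7 untreated pyometra dogs (red, left) and 20 diestrus dogs (blue, right), with the mean (bar) and 1 SD (whiskers). EPHA7, ELAPOR1, WNT11, MSX1 and SLC30A2 do not overlap between groups, HSD17B2, SULT1D1, LRAT and ESR2 overlap at the lowest healthy dogs, and ESR1, PGR and LTF were not called.

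Among the 11 lower transcription factors of glands and epithelium was MSX1. This homeobox factor of the uterine epithelium had 7.30, 8.68 and 9.44 in untreated pyometra, against 9.77, 10.78 and 11.18 in diestrus (log2 fold change -2.17, SE 0.19, adjusted p = 1.42e-09). Its relative MSX2 had 6.13, 6.59 and 7.27 in untreated pyometra, against 6.79, 9.40 and 11.17 in diestrus (log2 fold change -2.56, SE 0.43, adjusted p = 2.92e-05). TFCP2L1, a factor of exocrine ducts, fell without overlap (log2 fold change -2.02, SE 0.21, adjusted p = 1.58e-08). SOX17, which the uterine glands and the endothelium both need in mice, had 7.34, 7.62 and 7.91 in untreated pyometra, against 8.63, 9.31 and 9.69 in diestrus (log2 fold change -1.63, SE 0.12, adjusted p = 1.15e-10), with the groups well apart. SPDEF, a factor of mucous cells, fell (log2 fold change -2.14, SE 0.52, adjusted p = 0.00159), with 2 of 7 dogs below the range. Wnt genes moved both ways, 11 of 49 lower and 6 higher (median 0.03). WNT11, a ligand of stroma and epithelium, had 5.06, 5.37 and 7.01 in untreated pyometra, against 8.03, 8.41 and 9.18 in diestrus (log2 fold change -2.75, SE 0.19, adjusted p = 3.35e-11), with no overlap, and LEF1, a nuclear effector, fell (log2 fold change -1.93, SE 0.25, adjusted p = 8.54e-07). WNT5A, a ligand of the other, noncanonical branch, rose, with 7.37, 8.64 and 9.06 in untreated pyometra, against 5.69, 6.38 and 7.60 in diestrus (log2 fold change 1.98, SE 0.23, adjusted p = 1.35e-07), and DKK3 rose within the range of healthy dogs (log2 fold change 1.98, SE 0.37, adjusted p = 9.44e-05).

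Ion and water transport had 11 of 30 members higher and 6 lower (median 0.29). CFTR, the chloride channel that drives fluid into glands, had 8.43, 9.96 and 10.75 in untreated pyometra, against 4.49, 5.14 and 7.91 in diestrus (log2 fold change 3.93, SE 0.45, adjusted p = 1.27e-07). CA12, a carbonic anhydrase of the cell surface, had 7.13, 9.65 and 10.87 in untreated pyometra, against 4.25, 4.88 and 6.60 in diestrus (log2 fold change 4.19, SE 0.35, adjusted p = 6.01e-10). Both were above all healthy dogs in every diseased dog. Of 27 tight junction genes 2 were higher and 4 lower (median -0.07), the lower ones numbering 2 without dog 217. CLDN1 rose without overlap (log2 fold change 2.11, SE 0.32, adjusted p = 6.19e-06) and CLDN2, which forms pores for cations, rose in 6 of 7 above the range (log2 fold change 1.68, SE 0.25, adjusted p = 4.3e-06). CLDN8, which seals against cations, fell (log2 fold change -1.74, SE 0.26, adjusted p = 5.03e-06), as did occludin, OCLN (log2 fold change -1.29, SE 0.18, adjusted p = 3.08e-06), each in 6 of 7 below the range. SLC30A2, an exporter of zinc into secretions, had 6.25, 7.86 and 8.39 in untreated pyometra, against 9.41, 10.06 and 10.71 in diestrus (log2 fold change -2.41, SE 0.22, adjusted p = 2.12e-09). SLC39A8, an importer of zinc, had 6.24, 6.73 and 7.91 in untreated pyometra, against 4.62, 5.28 and 5.95 in diestrus (log2 fold change 1.76, SE 0.19, adjusted p = 2.9e-08). The 2 zinc transporters were called in opposite directions, each without overlap, in a list of 24 genes for iron and zinc with 2 higher and 2 lower (median 0.04). Secreted antimicrobial proteins and mucins were higher in 7 of 21 and lower in none (median 0.78), with MUC16 at 8.18, 8.88 and 9.29 in untreated pyometra, against 4.07, 5.07 and 9.07 in diestrus (log2 fold change 2.86, SE 0.64, adjusted p = 0.000764), and CHI3L1, a chitinase-like lectin of macrophages and epithelium, above the range in 6 of 7 (log2 fold change 2.22, SE 0.29, adjusted p = 8.49e-07).

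Of 19 markers of simple epithelium 2 were higher and 1 lower (median -0.26). The higher ones numbered 4 without dog 207, and the lower ones 0 without dog 100 or 217, 2 without dog 198 or 214 and 3 without dog 225. Squamous and basal epithelium markers were higher in 8 of 18 and lower in 1 (median 0.74), or in 0 without dog 199 or 217. KRT5, a keratin of basal cells, had 4.80, 9.01 and 11.53 in untreated pyometra, against 4.54, 4.97 and 5.30 in diestrus (log2 fold change 3.45, SE 0.55, adjusted p = 1.29e-05). The healthy dogs were close together and low, whereas dogs 199, 100, 198, 214 and 217 had 11.53, 11.13, 9.61, 9.01 and 7.15, and dogs 207 and 225 had 5.47 and 4.80. SBSN, suprabasin of the upper epidermis, had 7.93, 11.02 and 12.19 in untreated pyometra, against 5.54, 5.88 and 7.96 in diestrus (log2 fold change 4.63, SE 0.37, adjusted p = 3.42e-10), with 6 of 7 dogs above the range. TRIM29, a basal cell gene, rose (log2 fold change 1.69, SE 0.25, adjusted p = 4.19e-06). PCSK1, a convertase of prohormones in neuroendocrine cells, had 5.77, 10.62 and 12.26 in untreated pyometra, against 3.95, 4.30 and 4.66 in diestrus (log2 fold change 5.62, SE 0.50, adjusted p = 1.59e-09), and CHL1, a cell adhesion molecule of neurons, had 6.64, 9.60 and 11.13 in untreated pyometra, against 4.31, 4.92 and 5.81 in diestrus (log2 fold change 4.16, SE 0.37, adjusted p = 1.58e-09), both without overlap.

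In the wall beneath the epithelium, 7 of 18 stromal fibroblast markers were higher and 1 lower (median 0.84), the lower one being lost without dog 100, 198, 199 or 225. PDPN, podoplanin, had 8.71, 10.06 and 10.45 in untreated pyometra, against 5.50, 6.41 and 6.87 in diestrus (log2 fold change 3.51, SE 0.21, adjusted p = 2.6e-12), and LUM, the collagen-binding lumican, had 11.57, 12.07 and 12.57 in untreated pyometra, against 8.14, 10.18 and 11.36 in diestrus (log2 fold change 2.05, SE 0.35, adjusted p = 3.63e-05). Neither overlapped. Smooth muscle markers were higher in 4 of 15 and lower in none (median 0.64). DES, desmin, had 10.92, 11.48 and 12.04 in untreated pyometra, against 7.72, 9.14 and 10.57 in diestrus (log2 fold change 2.36, SE 0.30, adjusted p = 4.85e-07), again without overlap. The summed level of the smooth muscle list lay between 0.13 and 1.40 in the diseased dogs, against -1.24 and 0.83 in diestrus, and how much myometrium the samples held was not measured. Endothelial markers were higher in 5 of 18 and lower in 1 (median 0.42), 2 of them without dog 199 and 3 without dog 217. ENG, a coreceptor of growth factors on vessels, rose without overlap (log2 fold change 1.32, SE 0.18, adjusted p = 1.19e-06), and FLT1, a receptor of vascular endothelial growth factor, rose in 5 of 7 above the range (log2 fold change 1.50, SE 0.24, adjusted p = 1.61e-05).

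Cell cycle genes were lower in 4 of 41 and higher in none, with the lowest median of any list (-0.76). TTK, a kinase of the spindle checkpoint, had 3.93, 4.66 and 6.17 in untreated pyometra, against 4.85, 5.98 and 8.17 in diestrus (log2 fold change -1.46, SE 0.41, adjusted p = 0.00486), and E2F1, which starts DNA synthesis, had 4.68, 5.77 and 6.12 in untreated pyometra, against 5.60, 6.49 and 8.46 in diestrus (log2 fold change -1.18, SE 0.33, adjusted p = 0.00573). The summed level of the list lay between -1.06 and 0.07 in the diseased dogs, but the healthy dogs themselves ran between -1.09 and 1.78, and the count of lower genes was 2 without dog 198 or without dog 225. Genes of hypoxia and glycolysis were higher in 12 of 33 and lower in none (median 0.59). PFKFB3, an activator of glycolysis, had 7.64, 8.14 and 9.45 in untreated pyometra, against 6.05, 6.45 and 7.27 in diestrus (log2 fold change 1.84, SE 0.17, adjusted p = 5.2e-09), without overlap, and SLC2A3, a glucose transporter, rose (log2 fold change 1.91, SE 0.27, adjusted p = 2.12e-06). Immediate early genes were higher in 7 of 24 and lower in none (median 0.57), but in 2 without dog 207, whose list level of 2.04 was the highest, and in 4 without dog 217. IER3 was among them (log2 fold change 1.72, SE 0.32, adjusted p = 0.000115). In the list of NADPH oxidase and antioxidant genes 5 of 33 were higher and 3 lower (median 0.33). GPX3, a secreted glutathione peroxidase, rose (log2 fold change 3.34, SE 0.54, adjusted p = 1.82e-05), while the 2 subunits of the enzyme that limits glutathione synthesis were called in opposite directions, GCLC at 8.41, 9.42 and 9.72 in untreated pyometra, against 9.98, 11.12 and 11.68 in diestrus (log2 fold change -1.85, SE 0.18, adjusted p = 5.32e-09), and GCLM rising (log2 fold change 1.39, SE 0.27, adjusted p = 0.000154). Of 26 genes of cholesterol and fatty acid synthesis 2 were higher and 1 lower (median -0.03), the lower one being ELOVL7, an elongase (log2 fold change -1.37, SE 0.15, adjusted p = 4.51e-08). The higher ones numbered 1 without dog 199, 217 or 225. Of 17 S100 genes 6 were higher and none lower (median 0.65), with S100A4, a protein of motile cells, at 7.44, 8.84 and 9.62 in untreated pyometra, against 5.24, 6.18 and 6.83 in diestrus (log2 fold change 2.59, SE 0.21, adjusted p = 4.99e-10).

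The 7 diseased dogs were not alike. Dog 199 had the highest neutrophil list level (2.38), followed by dogs 225 (1.73) and 217 (1.18), and the other 4 lay between 0.14 and 0.34. Macrophage markers followed another order, led by dogs 217 (2.37) and 199 (2.33), with the lowest level, 0.77, in dog 207. Dog 100 had the highest level of squamous markers (2.42) and of mast cell markers (1.79). Dog 207 was near 0 for squamous markers (0.03) and for antimicrobial proteins (0.03) and lowest for metalloproteinases (0.41), while its immediate early genes were highest (2.04). Dog 225 led the interferon-induced genes (1.42) and the hypoxia genes (1.57). Smooth muscle markers were highest in dogs 100 (1.40), 217 (1.40) and 214 (1.36). Complement genes, in contrast, lay within a narrow band, 1.06 to 1.70, and gland transcription factors were below 0 in every dog, at -1.03 to -0.39. The 2 dogs with a closed cervix, 100 and 207, had neutrophil levels of 0.14 and 0.29, and with 2 dogs no comparison with the open cases was made.

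**Figure D4:**
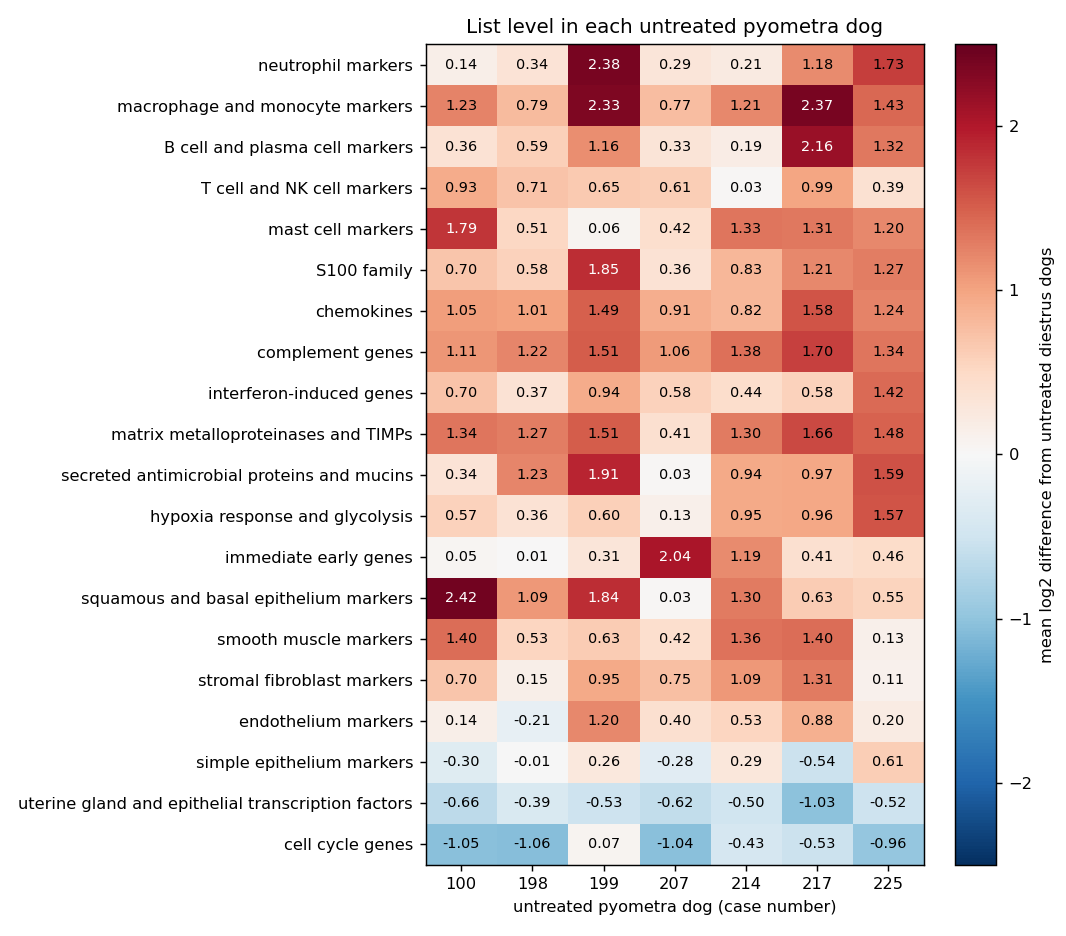
Mean log2 difference from the diestrus mean over the measured members of 20 gene lists (rows) in each of the 7 untreated pyometra dogs (columns, case numbers), red above and blue below the diestrus mean. Neutrophil markers are high in dogs 199, 225 and 217 only, and complement genes are raised in all 7.

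Single genes were also checked with an exact permutation test of the difference of means (two-sided, 888030 arrangements of 7 against 20 dogs, smallest possible p 1.13e-06). Of 22 genes chosen for it, 18 had p under 0.05 and 15 under 0.001. Many of the 22 had already been named by the study from these same arrays. The test was not run on all genes, so that these counts say nothing about genes in general. MMP13, DHRS9, TFPI2, S100A8, CHL1 and EPHA7 reached the smallest possible value. The exact permutation p was 0.0843 for ESR1, 0.69 for PGR, 0.849 for LTF and 0.175 for IL6, and it was 0.0412 for TNF and 0.00364 for IL1B, whose differences of 0.33 and 0.68 on the log2 scale were under 2-fold.

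Mucometra is also a distended uterus, but a sterile one. The diseased groups differ in infection but not in infection alone. In the study's clinical table most mucometra dogs were in anestrus or in mid or late diestrus. Their mean serum progesterone was below that of all dogs with pyometra, though not significantly. Infection, cycle stage and progesterone were not separated. Untreated pyometra differed from the 15 mucometra dogs in 18 genes (0.113%), 17 higher (0.107%) and 1 lower (0.00627%), with 191 genes past 2-fold at an unadjusted p under 0.05. Both comparisons use the same 7 diseased dogs. MMP1 had 3.31, 7.60 and 9.62 in untreated pyometra, against 2.86, 3.51 and 8.43 in mucometra (log2 fold change 3.70, SE 0.71, adjusted p = 0.0407). MMP13 had 7.27, 10.64 and 11.45 in untreated pyometra, against 4.41, 6.08 and 10.09 in mucometra (log2 fold change 3.61, SE 0.69, adjusted p = 0.0407). MMP12 had 6.67, 8.33 and 9.17 in untreated pyometra, against 4.32, 5.24 and 8.05 in mucometra (log2 fold change 2.36, SE 0.44, adjusted p = 0.0407). The 3 genes were above every mucometra dog in 3, 5 and 4 of the 7 diseased dogs, and the mucometra dog 216 was the highest of its group in all 3. NDUFA4L2, a hypoxia-induced subunit of the respiratory chain (log2 fold change 2.02, SE 0.44, adjusted p = 0.0496), and CERS3, a ceramide synthase of squamous epithelium (log2 fold change 1.80, SE 0.33, adjusted p = 0.0407), were among the rest. CD44 was higher as well (log2 fold change 1.78, SE 0.35, adjusted p = 0.0407) and was above every mucometra dog in 6 of 7. EGR1, an immediate early factor, was the gene lower in untreated pyometra, with 8.86, 9.44 and 12.71 in untreated pyometra, against 10.45, 12.33 and 12.84 in mucometra (log2 fold change -2.03, SE 0.44, adjusted p = 0.0495). The list of immediate early genes had a median of -0.84 against mucometra, compared with -0.017 over all genes. Of its 24 members 1 had a positive log2 fold change and 1 was called lower, or 11 without dog 207. The count of changed genes is not stable. It was 0 in 11 of the 22 fits that left out 1 dog, 229 without dog 207 and 91 without the mucometra dog 216. The mucometra dogs 182 and 216 had been given progesterone compounds, and the count was 118 without both. SLPI (log2 fold change 3.07, SE 0.71, adjusted p = 0.0665), TFPI2 (log2 fold change 2.59, SE 0.71, adjusted p = 0.0904) and IDO1 (log2 fold change 2.64, SE 0.65, adjusted p = 0.0803) had large differences that were not called. ESR2, with 5.30, 5.61 and 9.93 in mucometra (log2 fold change 0.02, SE 0.47, adjusted p = 0.984), and DHRS9, with 6.18, 10.07 and 11.23 in mucometra (log2 fold change 1.23, SE 0.56, adjusted p = 0.228), were not called either, and the 95% confidence interval of the ESR2 difference was -0.96 to 1.0.

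Against the 10 dogs with pyometra that had been treated with progesterone compounds, untreated pyometra differed in 636 genes (3.99%), 176 higher (1.1%) and 460 lower (2.88%). The study reports a closed cervix more often in treated than in untreated pyometra, and higher serum progesterone in closed than in open cases. The study's clinical table counts no dog with pyometra in anestrus beyond dogs 198 and 217, which were untreated. Treatment, cervix, cycle stage and serum progesterone were not separated in this comparison. Without dogs 198 and 217 the count was 595, with 144 higher and 451 lower. Cell cycle genes were lower in untreated pyometra in 32 of 41 (median -1.42, against -0.002 over all genes), neutrophil markers in 13 of 16 (median -1.87) and macrophage markers in 10 of 19 (median -1.29). The neutrophil list level was 0.14 to 2.38 in untreated pyometra, against 1.98 to 3.88 in treated pyometra, and the cell cycle level was -1.06 to 0.07 in untreated pyometra, against 0.28 to 1.25 in treated pyometra, with no overlap for the cell cycle. S100A12 had 4.72, 6.58 and 11.11 in untreated pyometra, against 9.91, 10.82 and 12.32 in treated pyometra (log2 fold change -3.51, SE 0.68, adjusted p = 0.00207). IL1B had 3.80, 4.68 and 5.89 in untreated pyometra, against 6.75, 8.14 and 9.81 in treated pyometra (log2 fold change -3.43, SE 0.41, adjusted p = 4.82e-05). The interleukin did not overlap, and S100A12 was below every treated dog in 6 of 7. ADGRE1, a marker of macrophages and eosinophils, was lower too (log2 fold change -2.86, SE 0.46, adjusted p = 0.000508). Genes higher in untreated pyometra were CHL1, with 6.64, 9.60 and 11.13 in untreated pyometra, against 4.47, 5.58 and 6.37 in treated pyometra (log2 fold change 3.73, SE 0.52, adjusted p = 0.000147), and KRT5, with 4.61, 5.02 and 5.71 in treated pyometra (log2 fold change 3.35, SE 0.76, adjusted p = 0.00604). CHL1 was above every treated dog in all 7, and KRT5 in 5. MMP13, with 8.15, 10.16 and 11.93 in treated pyometra, was not called (log2 fold change 0.07, SE 0.62, adjusted p = 0.959; 95% confidence interval -1.24 to 1.38), and neither was DHRS9 (log2 fold change -0.25, SE 0.35, adjusted p = 0.688). Without dog 225, on whose treatment the study differs with itself, the count of genes higher in untreated pyometra was 279. Smooth muscle markers were higher in 5 of 15, but in 2 without dog 100, and B cell and plasma cell markers lower in 8 of 17, but in 2 without dog 100 and in 2 without dog 207.

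**Figure D5:**
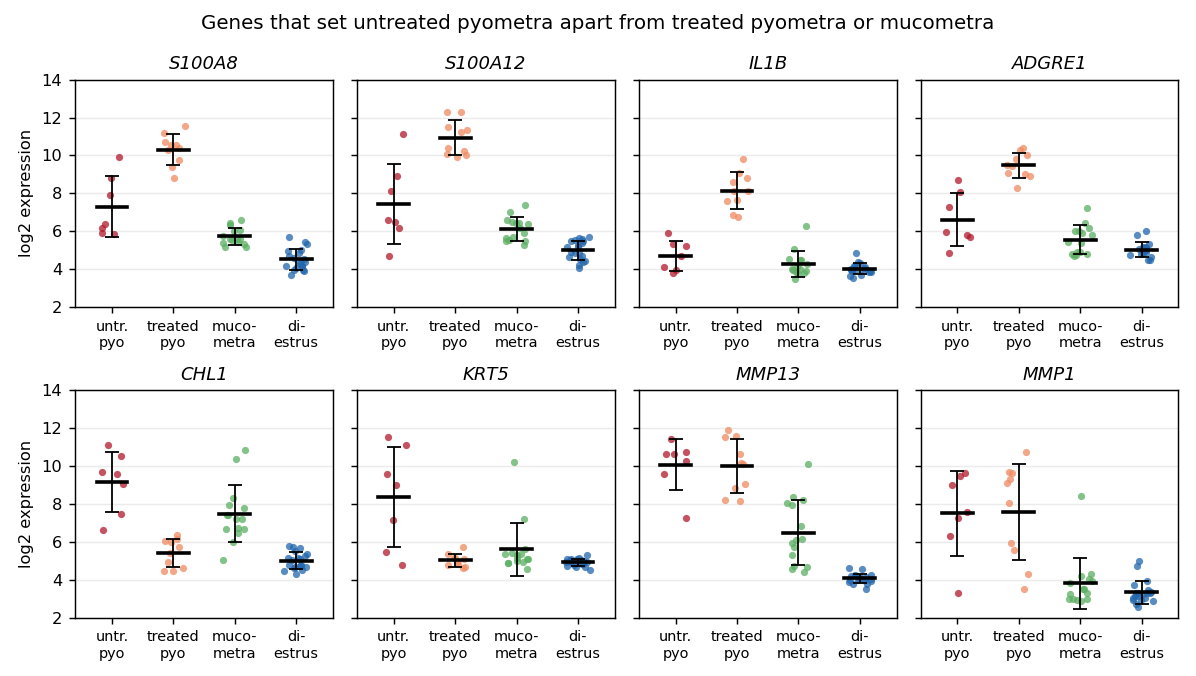
Log2 expression of 8 genes in each dog with untreated pyometra (7 dogs), treated pyometra (10), mucometra (15) and diestrus (20), from left to right, with the mean (bar) and 1 SD (whiskers). The top row (S100A8, S100A12, IL1B, ADGRE1) is highest in treated pyometra, CHL1 and KRT5 are higher in untreated than in treated pyometra, and MMP13 and MMP1 are high in both pyometra groups.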

How the data were processed

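Endometrial RNA of each dog was hybridised to 1 Affymetrix Canine Gene 1.0 ST array. The deposited values are log2 expression levels that the authors made by robust multi-array analysis (background correction and quantile normalization). The study names limma, with its version, for normalization. They ran between -0.16 and 14.12 over 32391 probe sets, without detection calls, so that low values may be background. The platform annotation gave 1 symbol to 16545 probe sets, several to 370 and none to 15476. Each of 15947 genes was represented by its probe set with the highest mean, and the other 598 were set aside. The gene IDs behind 15260 symbols were matched in RefSeq.

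Groups followed the titles. Progesterone treatment, stage and cervix of each dog were taken from the study, since the labels do not give them. Each comparison was fitted separately with limma 3.58.1 (lmFit and eBayes, R 4.3.3), Benjamini-Hochberg adjustment over 15947 genes, and calls at a fold change of at least 2 with adjusted p under 0.05. The fits were tested on simulated data. Leaving out a dog, adding the treated diestrus dog to the healthy ones, centring, robust moderation, array weights, 1 model over all arrays, a filter on genes under the 25th percentile, averaged probe sets, all probe sets and the methods' t-test were tried as alternatives. The 48 lists held 1166 symbols, of which 1016 were measured. Named genes were 22 genes for the permutation test, the 15 largest rises and falls against diestrus, in each list the most changed of the called members (up to 4), and the 5 largest rises and falls against each other reference, and not all of them are printed. The tissue genes, and CD44 against mucometra, fell outside that rule and were chosen after their values were seen. The members and lists were chosen with earlier results of these data known. Whether extraction or hybridisation was done in batches is not labelled. The number of arrays limits the precision. Other analyses used Python 3.11.15, numpy 2.4.6, pandas 2.3.3 and matplotlib 3.10.9.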

Additional observations from a re-analysis of the deposited data

Results flagged for a closer look

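In 5 of 140 groups of values tested, the highest or lowest dog lay so far from the nearest other dog that the gap, divided by the whole range of the group, passed Dixon's 95% critical value (0.568 for 7 dogs and 0.466 for 10 dogs). Chance alone gives about 1 in 20 such groups. Dog 225 accounted for 3 of them in untreated pyometra. Its GREB1 level was 6.46, below the other 6 dogs at 7.98 to 8.58. Its PGR level was 7.96, below the other 6 at 9.31 to 10.1. Its IL1A level was 9.31, above the other 6 at 5.54 to 6.71. The E2F1 level of dog 198 was 4.68, below the other 6 at 5.5 to 6.12. In treated pyometra the DHRS9 level of dog 213 was 9.15, below the other 9 at 10.73 to 11.91.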

How the results depend on the processing

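Against diestrus, the 123 called genes among the 130 printed kept their call in each of the 37 alternatives, and none of these 123 values changed sign. Printed genes were picked mostly for large changes in these same arrays, so that this says little about the 1465 calls in general. LTF, PGR and EGR1, which were not called, changed sign in some. The 1465 changed genes numbered 1375 to 1563 when 1 dog was left out, 1237 without dim genes, 1595 with array weights, 1444 with the treated diestrus dog added, 1453 by the methods' t-test and 2035 probe sets when all were tested. Against treated pyometra, the 5 called genes kept their call and sign in all 26 alternatives, MMP13, not called, changed sign in some, and the count of 636 lay between 522 and 758 when 1 dog was left out, with 128 to 279 genes higher in untreated pyometra.

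Against mucometra the count of 18 depended on the setting. Leaving out 1 dog gave 0 to 229 genes, 0 to 168 higher and 0 to 61 lower. Centring gave 9 genes (9 higher, 0 lower), array weights 137 (114 higher, 23 lower), 1 model over all arrays 122 (106 higher, 16 lower), and leaving out the mucometra dogs 182 and 216, shown as treated by the study, gave 118 genes, of which 96 were higher and 22 lower. The methods' t-test gave 0 genes (0 higher, 0 lower), as did the fit without dogs 198 and 217 (0 higher, 0 lower), against 191 genes past 2-fold at an unadjusted p under 0.05 in limma with all dogs. With trend and robust moderation, without dim genes, and without dogs 100 and 216, 0 genes were lower. Each of the 7 called genes printed lost its call in some alternative, IDO1, SLPI and TFPI2 gained one in some, and none of the 7 changed sign. ESR2, not called, ranged from -0.24 to 0.30 over the fits that left out 1 dog. The cause was not tested. No paired analysis was possible because each case number belonged to 1 dog. Leaving out single reference dogs, and the list counts without single dogs, were chosen after seeing the data.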
